A study of Mus musculus with 15 samples.

Results

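Muscle stem cells (MuSCs) taken after autologous transplantation were set against MuSCs taken before it from the same 3 mice, numbered 5, 6 and 11. These 6 libraries, 3 after and 3 before, were chosen by their labels from the 15 bulk RNA sequencing libraries of the study, and the other libraries are of quadriceps femoris muscle. All mice were wild type, of strain 129, 10 weeks old and labelled as male, and the study lists 10 animals. The cells before transplantation came from a biopsy, each mouse then received its own MuSCs back, and the cells after it came from a biopsy of an area that had not been injected. The comparison thus asks how the resident MuSCs of an animal differ once it has received a graft elsewhere. The muscle that was biopsied for MuSCs, the sorting or culture of the cells and the time between the biopsies are not stated in the sources used here. The design has no group of MuSCs from mice biopsied again without a graft, so transplantation, the earlier biopsy and the passage of time cannot be told apart. Libraries are named below by group and mouse, such as after 5.

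MuSCs, also called satellite cells, lie between the muscle fibre and its basal lamina and are the source of new myonuclei when muscle is repaired. In resting muscle they are quiescent and carry the transcription factor Pax7, and when activated they express Myod1, divide, and either fuse into fibres or return to quiescence. Notch signalling, contact with the basal lamina and collagens of the niche are known to hold them in the quiescent state. They also keep a memory of their position in the body through homeobox genes, so that MuSCs of different muscles differ in Hox expression.

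Before the differences, 3 properties of the libraries bear on every result. The libraries fall into 2 sets by the length of the transcripts they favour: after 5, before 5 and before 11 (set A) had mean effective lengths of 1240 to 1264 bases in the deposited table, and after 6, before 6 and after 11 (set B) of 1005 to 1022 bases. Both libraries of mouse 5 are of set A and both of mouse 6 of set B, while the pair of mouse 11 crosses the sets. Total estimated counts were 17.09 to 21.26 M per library (M for mega). After 11 also had 1.2% of its counts in mitochondrial transcripts against 4.44 to 6.28% in the others, and 17873 genes detected, the fewest. The 7 MuSC markers, Pax7, Myf5, Myod1 and Des among them, summed to 2260 to 4770 CPM (counts scaled to a common library total) after and 2640 to 5210 CPM before, so the labelled cell type is borne by its markers. Of other cell types, the lymphocyte and erythroid lists summed to at most 0.409 CPM in any library, and the defining markers Ptprc, Adgre1, C1qa, Cd3e, Plin1 and Cidec were at 0 in all 6. The 19 macrophage and myeloid markers summed to 5.1, 9.68 and 5.38 CPM before and to 18.7, 59.3 and 22.4 CPM after, of which Laptm5, a lysosomal membrane protein, made up 1.60, 55.1 and 13.5 CPM after. The 12 adipocyte markers summed to 200 to 303 CPM before and to 795, 950 and 82.5 CPM after, nearly all of it Car3, a carbonic anhydrase that muscle fibres hold too (197 to 300 CPM before and 789, 946 and 64.2 CPM after). The part of these other cell types in the results was not tested. Sex-linked genes go against the label of male: the Y-linked Ddx3y and Eif2s3y had 0 counts in all 6 libraries, and 4 Y-linked genes together had 1 to 5 counts per library.

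No gene passed the test across all genes. The edgeR quasi-likelihood fit of 3 libraries against 3 covered 13512 genes and gave 0 of them (0%) an adjusted p under 0.05, the smallest being an adjusted p of 0.873. Before adjustment 305 genes (2.26%) had a p under 0.05. DESeq2 called 16, of which 13 were higher after (0.0966%) and 3 lower (0.0223%). What follows therefore describes differences that were repeated in 3 of 3 mice, and the words higher and lower give the direction of the measured values. In each mouse the difference is log2 CPM after minus log2 CPM before. By direction alone, 1454 genes (10.8%) were higher after in every mouse and 1395 (10.3%) were lower in every mouse. That split depends on the scaling: it was 1090 and 1816 with library totals in place of TMM scaling, 1872 and 1337 with a length correction, and 1072 and 1931 on log2(TPM + 1) of the deposited values. A difference of at least 1 on the log2 scale in each mouse was reached by 37 genes upward (0.274%) and 45 downward (0.333%). All 37 of the former are protein-coding, as are 40 of the latter. In 23 of the 37 and 35 of the 45 the libraries after did not overlap those before, against 452 genes (3.35%) and 403 genes (2.98%) of all genes tested. Direction in each mouse and the absence of overlap come from the same libraries, so one is no support for the other.

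**Figure D1:**
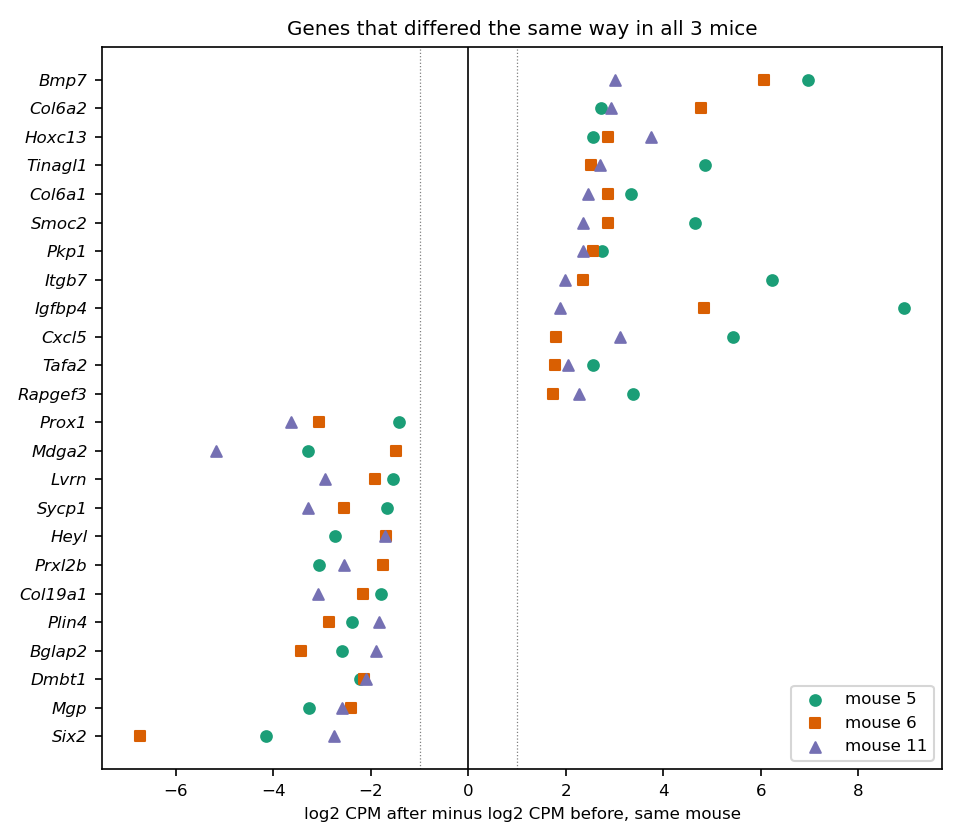
Log2 CPM after minus log2 CPM before (x axis) in mice 5, 6 and 11 (points) for the 12 genes highest and the 12 lowest by the smallest of their 3 differences, among genes with a mean of at least 1 CPM, with dotted lines at 1 and -1. Bmp7 stands at the top with a difference of at least 3.01 in each mouse and Six2 at the bottom with at most -2.76.

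A group among the genes higher after encodes collagen VI, a collagen of the pericellular matrix that assembles from chains made by Col6a1, Col6a2 and Col6a3 and is part of the MuSC niche. All 3 chains were higher after in 3 of 3 mice. Col6a1 stood at 16.2, 1.44 and 0.494 CPM in before 5, 6 and 11 and at 163, 11.1 and 3.16 CPM in after 5, 6 and 11. Every mouse thus went upward by a like factor, with log2 differences of 3.33, 2.87 and 2.45, but from starting levels so far apart that the groups overlap. Col6a2 stood at 11.7, 0.0625 and 0.0494 CPM before and at 77.1, 4.47 and 1.05 CPM after. Its values in before 6 and before 11 are a single count each, so the size of its differences in mice 6 and 11 is uncertain. Col6a3 stood at 20.6, 0.375 and 0.395 CPM before and at 479, 1.49 and 1.58 CPM after. Mouse 5 was the highest of the 3 mice in all 3 genes, both before and after. The unpaired log2 differences were 3.28 ± 1.72 (SE) for Col6a1, 2.79 ± 2.06 for Col6a2 and 4.48 ± 2.53 for Col6a3 (edgeR, unadjusted p = 0.0974, 0.217 and 0.119). With the mouse as a block the difference of Col6a1 was 3.01 ± 0.37 and it headed the ranking by F statistic, at an adjusted p of 0.901. These values depend on the libraries of mouse 5: Col6a1 was at 0.22 without after 5 and at 5.92 without before 5, and Col6a2 at -0.53 and 8.77. Set per length, as TPM (counts scaled for gene length and total), Col6a1 was at 59.3, 2.64 and 0.73 in after 5, 6 and 11 and at 9.87, 8.68 and 10.09 in the quadriceps of the same mice after transplantation.

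The starts of the 3 collagen VI genes are shown because the chains differed together, and that of Six2 because it lay at the other end of the ranking. Each is the 250 bases before the RefSeq transcription start on GRCm38.p6, read 5′ to 3′ on the minus strand, with capitals at matches to the motifs named below. Col6a1 is at chr10:76726045-76726294, Col6a2 at chr10:76623405-76623654, Col6a3 at chr1:90843972-90844221 and Six2 at chr17:85688255-85688504.
Col6a1: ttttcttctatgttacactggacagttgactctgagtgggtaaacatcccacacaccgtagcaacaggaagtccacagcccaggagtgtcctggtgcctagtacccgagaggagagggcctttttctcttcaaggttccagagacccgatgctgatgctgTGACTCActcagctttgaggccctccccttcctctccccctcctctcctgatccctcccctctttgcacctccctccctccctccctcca
Col6a2: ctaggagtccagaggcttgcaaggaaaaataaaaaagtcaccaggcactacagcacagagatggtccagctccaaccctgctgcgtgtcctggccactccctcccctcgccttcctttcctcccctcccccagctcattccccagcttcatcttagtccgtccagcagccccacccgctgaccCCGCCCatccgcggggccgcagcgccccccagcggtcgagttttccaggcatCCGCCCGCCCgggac
Col6a3: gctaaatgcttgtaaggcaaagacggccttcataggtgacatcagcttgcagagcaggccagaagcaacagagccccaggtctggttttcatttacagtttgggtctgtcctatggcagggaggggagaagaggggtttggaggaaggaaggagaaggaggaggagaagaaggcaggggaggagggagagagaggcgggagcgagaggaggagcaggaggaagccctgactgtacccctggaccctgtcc
Six2: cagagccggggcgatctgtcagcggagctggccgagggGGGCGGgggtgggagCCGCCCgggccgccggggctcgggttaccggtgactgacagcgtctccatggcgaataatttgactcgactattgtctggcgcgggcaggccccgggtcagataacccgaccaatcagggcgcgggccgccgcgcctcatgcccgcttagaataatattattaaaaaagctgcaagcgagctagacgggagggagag
Both strands were searched for 4 motifs, and the share of the 27025 promoter windows of this length with at least 1 match is given beside each. The AP-1 site, TGACTCA on either strand (4.43% of windows), was found 1 time in Col6a1, with its first base at position -90 from the start, and in none of the others. A GC box, searched as GGGCGG (32.9%), was found 3 times in Col6a2, where a pair overlap, and 2 times in Six2. No match was found to the E-box that muscle regulatory factors bind, searched as CAGCTG (12.8%). No TATA box was found either in these 4 windows, searched as TATAAA (13%). The 3 chains thus share none of the motifs searched. The table lists 2 starts for Col6a2, of which the first is shown.

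Within a list of collagens and matrix proteins, no other tested gene shared the direction of collagen VI in every mouse. Of 28 tested members of that list, 3 were higher after in every mouse, the collagen VI chains, and 5 were lower in every mouse. The shares among all genes tested were 10.8% and 10.3%, so the higher share is near that of all genes. The 5 lower members were the laminin chain Lama2, the network collagen Col8a1, the fibril-associated collagen Col14a1, the matricellular protein Sparc and the elastic fibre protein Fbln5. Sparc was at 937, 904 and 896 CPM before and at 645, 718 and 619 CPM after, with no overlap and log2 differences of -0.54, -0.33 and -0.53. Col8a1 was at 38.3, 19.2 and 55.1 CPM before and at 11.2, 13 and 18.8 CPM after, again with no overlap. Outside that list Col19a1, a minor collagen, was at 26, 7.25 and 18.6 CPM before and at 7.38, 1.54 and 2.10 CPM after. Each mouse was lower by at least 1.8 on the log2 scale, with the groups touching through before 6 and after 5.

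Other secreted matrix proteins stood at both ends. Smoc2, a calcium-binding matricellular protein, was at 9.60, 4.06 and 1.68 CPM before and at 241, 30.1 and 8.94 CPM after. Tinagl1, a glycoprotein of basement membranes, was at 2.51, 1.75 and 0.494 CPM before and at 75.1, 10.4 and 3.74 CPM after, with no overlap. In both genes, as in collagen VI, after 5 was the highest library. In the other direction, Mgp, an inhibitor of calcification, was at 38.9, 26.1 and 4.74 CPM before and at 3.94, 4.84 and 0.701 CPM after, with log2 differences of -3.27, -2.40 and -2.59. Bglap2, an osteocalcin gene, was at 2.93, 11.3 and 7.21 CPM before and at 0.399, 0.958 and 1.87 CPM after, with no overlap. Bglap2 has close copies in the genome, so its counts are uncertain. Pkp1, a plakophilin of desmosomes, differed by a similar amount in each mouse (2.74, 2.56 and 2.34) without overlap, and the extracellular superoxide dismutase Sod3 by 4.14, 3.19 and 1.43.

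Markers of fibroadipogenic progenitors, interstitial cells of muscle that make much of its collagen VI, were looked at beside these matrix genes. The 6 markers summed to 13.7, 8.37 and 3.70 CPM in before 5, 6 and 11 and to 270, 32.8 and 14.3 CPM in after 5, 6 and 11. Smoc2, itself chosen for its direction in 3 of 3 mice, is 1 of them and made up 241, 30.1 and 8.94 CPM of the sums after. Without it the other 5 summed to 4.08, 4.31 and 2.02 CPM before and to 29, 2.77 and 5.38 CPM after, higher in mice 5 and 11 and lower in mouse 6. A longer list of 16 such markers summed to 232, 285 and 226 CPM before and to 562, 341 and 761 CPM after, higher in each mouse. Of its 6 tested members 2 were higher in every mouse and 0 lower, beside 10.8% and 10.3% of all genes. Dpp4 was at 0 in all libraries, and the defining receptor Pdgfra had 23, 2 and 5 counts before and 54, 2 and 6 counts after. The part of such cells in the collagen VI and Smoc2 values was not tested, and in bulk RNA fewer cells of a type and less RNA per cell cannot be told apart.

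**Figure D2:**
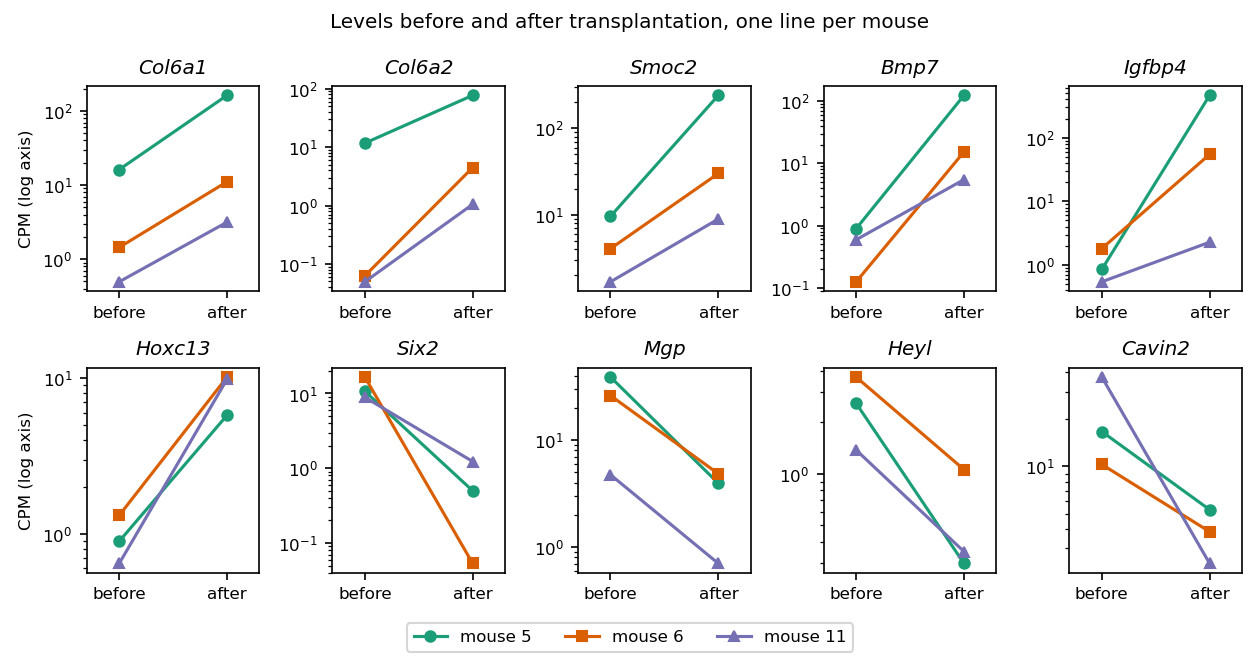
CPM on a log axis before and after transplantation for 10 genes, with 1 line for each of mice 5, 6 and 11. The lines of Col6a1, Col6a2 and Smoc2 run upward from different starting levels, whereas those of Bmp7, Hoxc13, Six2 and Cavin2 leave a gap between the 3 libraries before and the 3 after.

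Among secreted signals, Bmp7, a bone morphogenetic protein, stood highest by the smallest of the 3 differences among genes with a mean of at least 1 CPM. It was at 0.892, 0.125 and 0.592 CPM before and at 124, 15.3 and 5.49 CPM after, so even the lowest library after was above the highest before. The unpaired log2 difference was 6.43 ± 1.40 (edgeR, adjusted p = 0.873), and 4.20 without after 5. DESeq2 gave an adjusted p of 7.4e-06, the lowest over the alternatives, and the highest was 1. Of 32 tested members of the BMP and TGF-beta list, 4 were higher after in every mouse and 6 lower, beside 10.8% and 10.3% of all genes, so the higher share is near that of all genes. The other higher members included the ligand Tgfb1 and the activin receptor Acvr2b. The lower ones included the BMP antagonist Grem1 (-0.42, -1.26 and -2.89), the ligand Gdf6 (-1.72, -0.63 and -3.50), the activin subunit gene Inhbb (-1.78, -0.72 and -0.13), Tgfb2 and Tgfb3. Gdf6 was at 42.9, 11.3 and 29.4 CPM before and at 12.9, 7.29 and 2.51 CPM after. The list's median differences of -0.11, 0.01 and -0.38 in mice 5, 6 and 11 show no common direction.

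Igfbp4, which binds insulin-like growth factors in the extracellular space, stood apart in after 5 and after 6. It was at 0.850, 1.81 and 0.543 CPM before and at 465, 54.9 and 2.28 CPM after, with no overlap and log2 differences of 8.93, 4.84 and 1.88. Its relative Igfbp3 was at 17.8, 14.1 and 6.42 CPM before and at 154, 21.1 and 29.7 CPM after. The growth factor Igf2 was lower in each mouse (-0.34, -0.48 and -1.79), and it stood at 769 to 2020 CPM before and 222 to 1450 CPM after. Of the 17 tested members of the IGF axis, 2 were higher in every mouse, the binding protein pair named here, and 3 lower. The higher share is near the 10.8% of all genes.

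Cxcl5, a chemokine that draws neutrophils, was at 0.340, 0.187 and 0.0987 CPM before and at 19, 0.905 and 1.64 CPM after. Of 10 tested inflammatory cytokines and chemokines, 3 were higher in every mouse (Cxcl1, Cxcl5 and Ccl7) and 0 lower, beside 10.8% and 10.3% of all genes. Itgb7, an integrin chain best known on lymphocytes, was at 0.0850, 0.312 and 0.247 CPM before and at 14.0, 2.02 and 1.29 CPM after. The 14 lymphocyte markers together stood at no more than 0.409 CPM in any library. Gprc5a, an orphan receptor, was at 16.0, 7.06 and 6.71 CPM before and at 113, 20.0 and 40.6 CPM after, and Apln, the ligand of the apelin receptor, at 0.680, 0.875 and 1.18 CPM before and at 7.38, 2.13 and 2.86 CPM after. Neither of these 2 genes overlapped between groups.

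Heyl, a Notch target and transcriptional repressor of MuSCs, was lower in every mouse. It was at 2.59, 3.69 and 1.38 CPM before and at 0.299, 1.06 and 0.351 CPM after, without overlap. The unpaired difference was -2.14 ± 0.70 (edgeR, unadjusted p = 0.0174). The other Notch genes did not share it: of 16 tested, 1 was lower in every mouse (Heyl) and 3 were higher, beside 10.3% and 10.8% of all genes. The higher ones were the target Hey1 (0.04, 0.48 and 0.66), the feedback inhibitor Nrarp and the glycosyltransferase Rfng. The Notch list's median was -0.08, 0.22 and 0.11 in mice 5, 6 and 11.

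In the Wnt list, 7 of 23 tested members were lower in every mouse and 3 higher, beside 10.3% and 10.8% of all genes. The lower ones were the ligands Wnt7b and Wnt9a, the receptors Fzd7, Fzd8 and Ror1, the Dickkopf family member Dkk3 and the target Axin2. Outside the list, Lgr5, the R-spondin receptor known from intestinal stem cells, was at 9.35, 5.31 and 5.78 CPM before and at 3.99, 2.55 and 0.234 CPM after, with no overlap. The higher list members were Wnt5a (2.62, 0.67 and 1.86), Wnt5b and the co-receptor Lrp5. The list's median was -0.41, 0.15 and -0.13 in the 3 mice.

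Genes of body position differed in a pattern that ran against neighbours of the same cluster. Hoxc13 was at 0.892, 1.31 and 0.642 CPM before and at 5.79, 10.2 and 9.88 CPM after. Hoxc11 was at 11.9, 8.87 and 7.11 CPM before and at 23.7, 32.1 and 43.8 CPM after. Hoxc12 had 0 counts in all 3 libraries before and 15, 14 and 15 counts after, at least 15.7-fold higher where the floor is 3 counts over the group. In none of these genes, which end the HoxC cluster and mark distal position, did the groups overlap, and mouse 5 did not stand above the others as it did in the matrix genes. Further along the cluster Hoxc6 and Hoxc8 were lower in every mouse (-0.64, -0.06 and -0.88 for Hoxc6, and -0.75, -0.74 and -3.03 for Hoxc8). For Hoxc6 the difference in mouse 6 was close to none. Per length, Hoxc10 was at 32.87, 21.24 and 23.38 TPM before and at 18.91, 20.58 and 17.83 TPM after.

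The quadriceps of the same mice, sampled after transplantation, gives a level for comparison in another tissue. Hoxc12 and Hoxc13 were at 0 TPM in all 3 of these muscle libraries, and Hoxc11 was at 2.96, 3.07 and 1.97 TPM. In MuSCs Hoxc11 was at 9.27, 4.67 and 5.35 TPM before and at 18.66, 16.49 and 21.81 TPM after. The strand setting of the counting is not stated in these sources, so antisense transcripts such as Hotair, which lies between Hoxc11 and Hoxc12, cannot be told apart from them. Hotair itself was at 0.20 to 0.76 TPM before and at 0.35 to 2.1 TPM after. Over the lists, 4 of 10 tested Hox genes of groups 9 to 13, the antisense transcript Hoxa11os among them, were higher in every mouse and 1 was lower (Hoxa9), and of 15 tested genes of groups 1 to 8, 2 were higher and 4 lower. Among all genes 10.8% were higher and 10.3% lower, and with library totals, a length correction or log2(TPM + 1) the first of these lists held 3 higher and 2 lower. The 2 higher ones of groups 1 to 8 were Hoxb2 (2.52, 2.3 and 1.7) and Hoxd8 (3.50, 1.03 and 4.96), and per length Hoxd8 in mouse 6 was at 0.34 TPM before and 0.32 TPM after, so its direction there flips. Hox genes that did not pass the filter are left out of these counts. Among them Hoxb5, Hoxb6, Hoxb7, Hoxb8 and Hoxb9 had 91, 226, 296, 321 and 455 counts in after 6, and at most 41 in any other library.

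Six2, a homeobox factor of mesenchymal progenitors, was the lowest gene by the same measure. It was at 10.7, 16.6 and 8.89 CPM before and at 0.499, 0.0532 and 1.23 CPM after, where the value of after 6 is a single count. Every library before was above every library after. The difference was -4.34 ± 0.90 (edgeR, adjusted p = 0.873), and DESeq2 gave an adjusted p of 0.000163, with 1 as the highest over the alternatives. In the quadriceps of the same mice Six2 was at 6.57, 5.56 and 4.83 TPM, and in MuSCs before it was at 7.93, 8.27 and 6.34 TPM.

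Tbx1 and Prox1, transcription factors with roles in head muscle and in lymphatic and slow-fibre identity, were also lower in every mouse without overlap. Tbx1 was at 39.6, 45.5 and 24.5 CPM before and at 3.39, 20.1 and 0.526 CPM after. Prox1 was at 5.82, 2.56 and 5.58 CPM before and at 2.10, 0.213 and 0.351 CPM after. Of 25 tested positional transcription factors outside the Hox clusters, 4 were lower in every mouse (Six2, Eya1, Tbx1 and Prrx1) and 4 were higher (Six5, Tbx3, Meis1 and Emx2), beside 10.3% and 10.8% of all genes. Tbx3, a limb T-box factor, was at 11.7, 9.56 and 6.12 CPM before and at 12.8, 27.4 and 23.7 CPM after. Irx2, an Iroquois factor, was higher by 1.7, 1.68 and 4.34, but its groups overlap through before 6.

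Some genes of caveolae and lipid handling were lower in every mouse and others of the same lists higher. Cavin2, a coat protein of caveolae, was at 16.7, 10.3 and 37.2 CPM before and at 5.29, 3.83 and 2.40 CPM after. Plin4, which coats lipid droplets, was at 3.82, 2.19 and 2.57 CPM before and at 0.649, 0.213 and 0.643 CPM after. Neither overlapped between groups. The desaturase Scd1 was at 30.3, 39.2 and 28.6 CPM before and at 16.6, 5.69 and 6.14 CPM after, again without overlap. The carnitine transferase Cpt1b (-0.75, -0.97 and -2) and the fatty acid carrier Fabp3 were lower in each mouse too, while Fasn, the fatty acid synthase, was higher at 379, 336 and 465 CPM after against 241, 243 and 263 CPM before. Of 21 tested lipid genes, 6 were lower and 3 higher in every mouse, and of 11 caveolar genes, 4 were lower and 3 higher, beside 10.3% and 10.8% of all genes. Their medians over the 3 mice were -0.44, 0.12 and 0.56 for lipid genes and -0.12, -0.04 and -0.38 for caveolar genes.

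Several genes best known from neurons and sensory cells were lower after. Iqsec3, an exchange factor of inhibitory synapses, was the most abundant of them, at 87.6, 76.8 and 46.2 CPM before and at 27.6, 29.3 and 13.6 CPM after. Its 3 differences of -1.66, -1.39 and -1.76 lie close together, and the groups do not overlap. Cacng7, a regulator of glutamate receptor trafficking, was at 11.5, 22.2 and 7.80 CPM before and at 1.90, 5.21 and 3.10 CPM after. Glutamate receptor subunit genes Gria3 (-4.58, -1.05 and -1.83) and Gria4 (-1.13, -1.62 and -3.28) and the adhesion gene Mdga2 (-3.29, -1.49 and -5.18) were lower without overlap as well. Adam23, a catalytically inactive ADAM protein, had 17, 12 and 13 counts before and 0 in all 3 libraries after, at least 13.1-fold lower where the floor is 3 counts over the group. These lower genes were singled out after their values were seen, and they were not tested as a group. Of other genes known from neurons, Tafa2 (2.55, 1.78 and 2.04) and Dpp6 (1.2, 1.15 and 3.15) were higher in every mouse, with overlap between groups. In a list of axon guidance genes, 6 of 29 tested were lower in every mouse and 4 higher, beside 10.3% and 10.8% of all genes.

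Sorcs2, a receptor that sorts proneurotrophins, was also higher after. It was at 16.7, 16.6 and 13.5 CPM before and at 35.5, 51.0 and 54.1 CPM after, and the groups do not overlap. The difference was 1.59 ± 0.29 (edgeR, adjusted p = 0.873), and DESeq2 gave an adjusted p of 0.00121, with 1 as the highest over the alternatives. Of 9 tested genes in the list of sortilin receptors and neurotrophin signalling, 5 were higher in every mouse and 2 lower, beside 10.8% and 10.3% of all genes. The higher ones were Sorcs1, Sorcs2, Bdnf, Gfra1 and Ret, and the lower ones Sort1 and Ngfr. Gfra1 and Ret, though in the list, encode receptors of another ligand family. On log2(TPM + 1) the higher count was 3. The list's medians were 0.50, 0.14 and 0.57. Ngfr, the low-affinity neurotrophin receptor, was at 2.80, 2.94 and 0.247 CPM before and at 0.699, 0.266 and 0.175 CPM after.

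Among enzymes, Ptgr1, a reductase of prostaglandins and of the NRF2 response, was higher in every mouse, at 42.8, 64.5 and 40.0 CPM before and at 91.6, 198 and 144 CPM after without overlap. The linker histone H1f0 was at 137, 122 and 94.9 CPM before and at 232, 217 and 279 CPM after. The urokinase receptor Plaur was at 69.2, 93.0 and 64.6 CPM before and at 215, 118 and 171 CPM after. In these 3 genes each library after was above each library before. The imprinted amino acid transporter Slc38a4 was lower, at 3.19, 0.625 and 1.68 CPM before and at 0.249, 0.213 and 0.0584 CPM after, and the aminopeptidase gene Lvrn at 3.53, 4.12 and 9.23 CPM before and at 1.15, 1.01 and 1.11 CPM after.

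Among the gene lists, that of mature myofibre genes held the largest share of members lower in every mouse, over the lists with at least 9 tested members. On log2(TPM + 1) it did not, with 6 of 17 against 5 of 11 caveolar genes. Of its 17 tested members, 9 were lower in every mouse and 0 higher, against 10.3% and 10.8% of all genes. Tcap, which caps titin at the Z-disc, was at 15.2, 29.6 and 6.47 CPM before and at 7.09, 7.13 and 1.87 CPM after. The skeletal actin Acta1 was at 3130, 5070 and 1610 CPM before and at 2890, 2370 and 383 CPM after, and the fast light chain Mylpf at 1460, 4140 and 668 CPM before and at 1080, 1550 and 320 CPM after. The list's median was -0.12, -0.77 and -1.74 in mice 5, 6 and 11. Under 4 other scalings, 6 to 9 members were lower in every mouse and 0 higher. In set A alone the list's median was 0.38 and in set B alone it was -1.45. The summed level of the 7 myofibre markers spanned 1920 to 5920 CPM before and 455 to 3630 CPM after. Acta1 is among these markers as well as in the list, and it made up most of the sum. The sum is thus no separate reading from the list, and the part of fibre RNA in these values was not tested.

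Genes of DNA replication lay on the other side. Of 24 tested, 7 were higher in every mouse and 0 lower, beside 10.8% and 10.3% of all genes: the helicase subunit genes Mcm2, Mcm3, Mcm5 and Mcm7, the clamp gene Pcna, the licensing factor Cdc6 and the polymerase gene Pold1. Pold1 was at 24.6, 29.3 and 23.5 CPM before and at 29.3, 55.8 and 78.1 CPM after, with differences of 0.25, 0.93 and 1.73. The differences were small in mouse 5, where the list's median was 0.04, against 0.39 and 0.85 in mice 6 and 11. Under the other scalings 5 to 8 members were higher in every mouse and 0 lower. Of 20 mitotic genes, 4 were higher in every mouse (Ccnb2, Aurkb, Plk1 and Birc5) and 0 lower, beside the same shares of all genes, with medians of 0.31, 0.54 and -0.52. Birc5, which encodes survivin, was at 49.1, 58.7 and 53.4 CPM before and at 62.9, 99.7 and 95 CPM after, without overlap. The CDK4 and CDK6 inhibitor gene Cdkn2c was higher as well, at 12.1, 10.1 and 9.18 CPM before and at 19.8, 17.5 and 19.9 CPM after.

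Immediate early genes, which respond quickly to stimulation or tissue handling, were higher in every mouse in 8 of 21 and lower in 3, beside 10.8% and 10.3% of all genes. Fosb was at 3.10, 1.87 and 1.28 CPM before and at 6.69, 3.94 and 4.56 CPM after. Junb was at 52.3, 89.2 and 46.7 CPM before and at 109, 94.8 and 160 CPM after. Ier2, Ier3, Klf4, Nr4a1, Nr4a2 and Myc made up the rest of the higher ones, while Egr3, Atf3 and Zfp36 were lower, and the list's median was 0.29, -0.01 and 0.80. With library totals in place of TMM scaling, 7 were higher and 6 lower. Of 19 glycolysis genes, 5 were higher in every mouse and 0 lower (Slc2a1, Hk1, Hk2, Pfkl and Pfkfb4), beside the same shares. Their medians were -0.03, 0.11 and 0.92. With a length correction 8 were higher and 1 lower, with library totals 4 and 0, and on log2(TPM + 1) 4 and 2. The glucose transporter gene Slc2a1 was at 82.9, 116 and 64.2 CPM before and at 113, 152 and 151 CPM after.

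Of 17 tested genes of MuSC identity, 0 were higher in every mouse and 2 lower, Myf5 and Heyl, beside 10.8% and 10.3% of all genes. With TMM scaling the lower share is thus near that of all genes. With library totals 4 were lower and 0 higher, beside 1816 and 1090 of all 13512 genes. On log2(TPM + 1) 5 were lower and 1 higher, beside 1931 and 1072. Pax7 differed by -0.90, 0.22 and 0.64 and Myod1 by -0.81, 0.26 and 1.32 in mice 5, 6 and 11, so the mice disagreed in direction for both. Of 18 quiescence genes, 4 were lower in every mouse and 1 was higher, beside 10.3% and 10.8% of all genes, and among the lower ones Spry1, a feedback inhibitor of receptor tyrosine kinases, was at 26.5, 35.4 and 19.5 CPM before and at 8.78, 15.1 and 16.0 CPM after. The heparan sulphate proteoglycan gene Sdc2 (-0.10, -0.17 and -1) and Tenm4 (-0.79, -0.21 and -2.35) were the others beside Heyl.

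**Figure D3:**
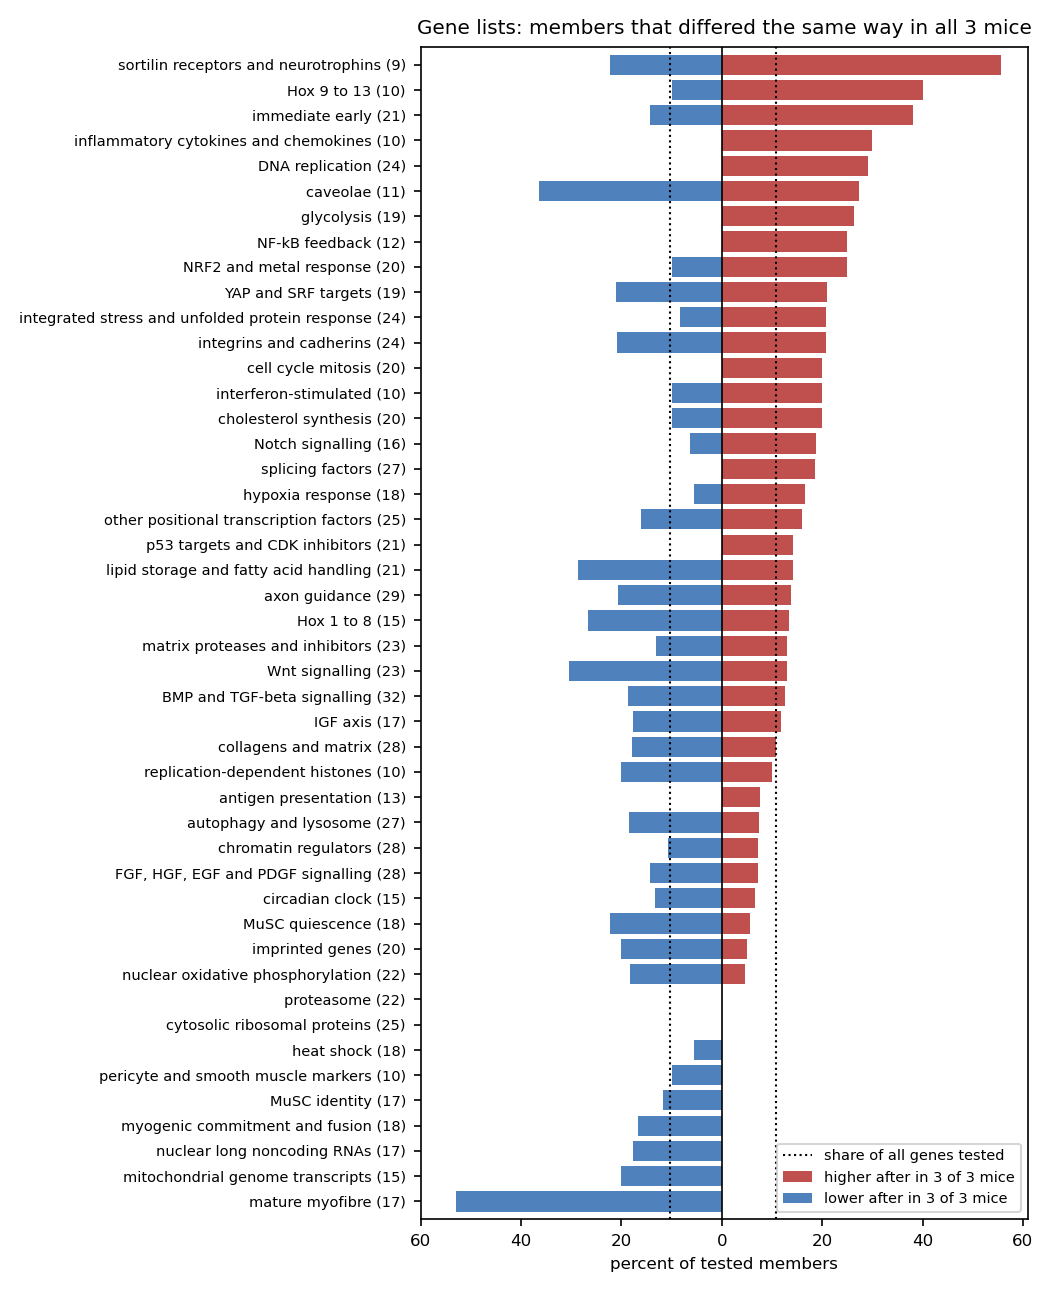
Percent of the tested members of 46 gene lists (numbers of tested members in brackets, lists with at least 9) that were higher (red, right) or lower (blue, left) after in 3 of 3 mice. Dotted lines mark the shares of all genes tested, 10.8% and 10.3%, and the mature myofibre list reaches furthest to the left with 9 of 17.

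Most genes did not go the same way in the 3 mice. The commonest patterns set mouse 5 against the other mice: 3112 genes (23%) were lower after in mouse 5 and higher in mice 6 and 11, and 3018 (22.3%) were the reverse. Requiring a log2 difference of at least 1 in mice 5 and 6 alone, whose libraries share a set within each mouse, gave 123 genes higher and 112 lower. Mice 6 and 11 gave 144 and 390, and mice 5 and 11 gave 141 and 141. The larger count of lower genes thus came with mice 6 and 11.

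Transcript length moved with the difference in mouse 11. Genes were split into 5 equal bins by exon length, with median lengths of 1582, 2966, 4328, 6082 and 9811 bases. In mouse 11 the median difference went from 0.77 in the shortest bin through 0.45, 0.13 and -0.33 to -1.08 in the longest. In mouse 5 it went the other way, from -0.15 to 0.17, and in mouse 6 it stayed between -0.08 and 0.04. With a length correction of the log2 CPM, 31 of the 37 higher genes and 34 of the 45 lower genes kept a difference of at least 1 in each mouse.

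**Figure D4:**
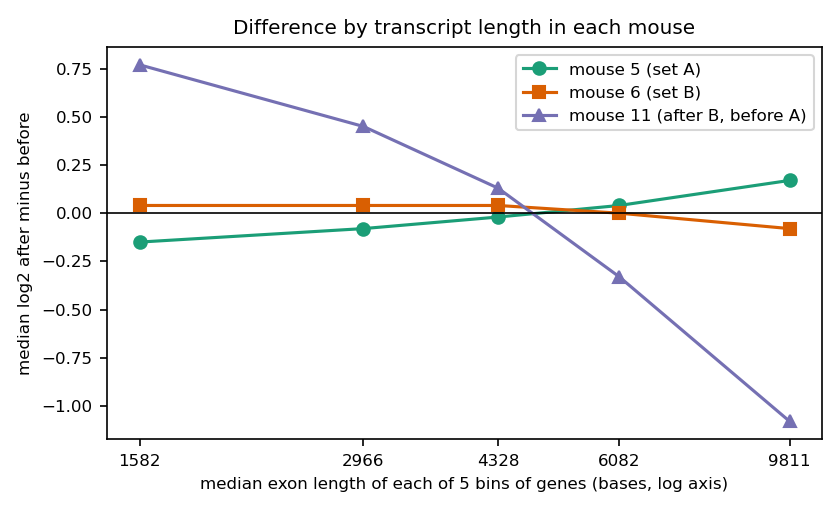
Median log2 CPM after minus before (y axis) over 5 equal bins of genes by exon length (x axis, log) in each mouse. The line of mouse 11, whose libraries are of different sets, runs from 0.77 down to -1.08, and the lines of mice 5 and 6 stay between -0.15 and 0.17.

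Several gene groups stood apart in mouse 11 alone. Ribosomal protein genes, which are short, had medians of -0.32, 0.15 and 1.56 in mice 5, 6 and 11, and 0 of 25 went one way in every mouse. Transcripts of the mitochondrial genome had medians of 0.12, -0.20 and -2.02, with mt-Co1 at 21600, 22600 and 21900 CPM before and at 18900, 20700 and 3650 CPM after. Interferon-stimulated genes had medians of -0.09, 0.01 and 3.20. Irf7, the transcription factor that amplifies the interferon response, was at 0.552, 0.437 and 0.395 CPM before and at 0.798, 1.01 and 96.7 CPM after. Antigen presentation genes had medians of -1.21, -0.71 and 2.69. For these lists the value of mouse 11 rests on after 11, which also crosses the library sets in its pair, and the part of the set in them was not tested.

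**Figure D5:**
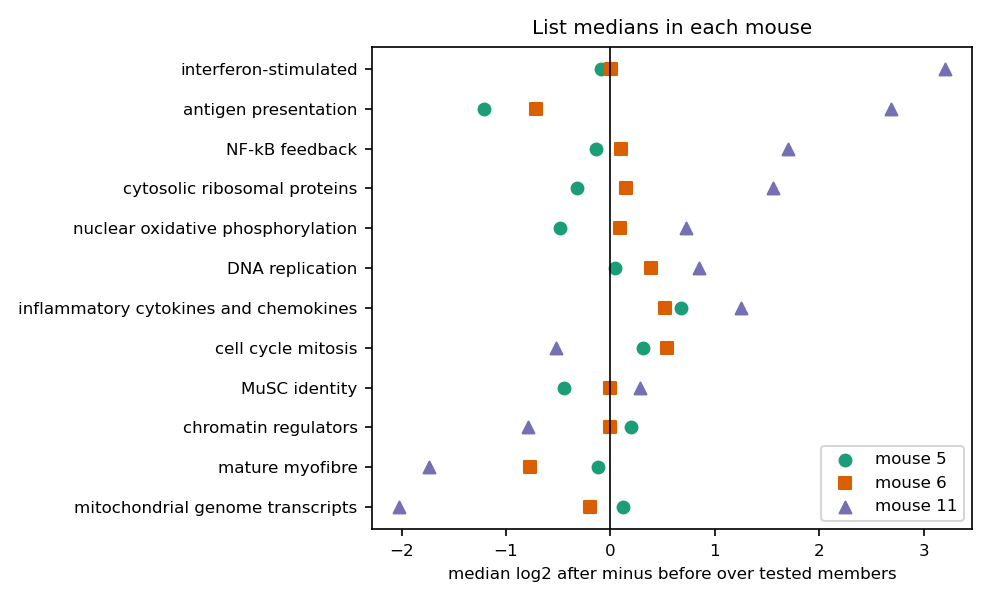
Median log2 CPM after minus before over the tested members of 12 gene lists (x axis) in mice 5, 6 and 11 (points). Mouse 11 stands apart from the others at 3.20 for interferon-stimulated genes and at -2.02 for mitochondrial transcripts, while the DNA replication list lies at or above 0.04 in all 3.

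Within set A alone, which sets after 5 against before 5 and before 11, 42 genes passed as higher (0.285%) and 1 as lower (0.00679%), and this fit assumes that the lone library after varies like those before. The first of them by adjusted p were Podnl1, Bmp7, Igfbp4, Anxa8 and Acan (edgeR, adjusted p = 0.00325 for the first 4). The fit rests on after 5. Bmp7 and Igfbp4 were higher in the other mice too, whereas Podnl1, Anxa8 and Acan were high mainly in after 5. Podnl1, a leucine-rich proteoglycan gene, was at 75.8 CPM in after 5 and at 4.36 and 0.584 CPM in after 6 and 11, against 0.510, 4.19 and 0.494 CPM before. The annexin gene Anxa8 was at 117, 3.09 and 0.643 CPM after and at no more than 0.562 CPM before. Acan, the cartilage proteoglycan aggrecan, had 3780, 66 and 0 counts in after 5, 6 and 11 and 0 counts in all libraries before, at least 1370-fold higher over the group.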

How the data were processed

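RNA was measured in 6 MuSC libraries by bulk RNA sequencing. Per the labels' protocols, the RNA extraction used Trizol and the libraries the NEBNext Ultra RNA kit. Per the file headers, the authors' table for MuSCs holds 56953 genes with estimated counts, FPKM and TPM. Some of the deposited estimated counts were not whole, and all were rounded for the tests. The TPM and FPKM in the authors' table are scaled for gene length and library total. The TPM were used here as levels, and the FPKM only to derive the mean effective length of each library. The aligner was not given in the sources used here, nor was the quantifier. GRCm38 and mm10 are named in the submitters' processing notes, but the gene coordinates of the table were not used. A further 3 columns in the deposited tables matched no sample and were not used. Exon lengths and gene types came from a GENCODE annotation of GRCm38 for 52029 of the genes, matched by gene identifier. Promoter windows came from RefSeq (GRCm38.p6), which held 19 of the 34 named genes.

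The main test was edgeR 4.0.16 (quasi-likelihood, R 4.3.3) with TMM scaling, a filterByExpr minimum count of 10 and Benjamini-Hochberg adjustment over 13512 genes, 2-sided, with a threshold of 0.05 and no covariate. CPM are scaled to TMM library sizes, and differences within a mouse use a prior count of 2. A standard error is the log2 fold change over the root of F. DESeq2 1.42.0, the mouse as a block, the library set as a term, length-corrected offsets, set A or B alone, other scalings and filters, and omission of each library or mouse were alternatives. Of these fits only the unpaired edgeR fit was tested on simulated counts, which held no effect of mouse, set or length. The p-values measure the spread between these libraries, which also holds the difference between the sets. Counting floors cover counting error only.

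The mouse numbers pair the libraries because the labels describe the graft as autologous. Deviations from the group means correlated at 0.30, 0.36 and -0.40 within mice 5, 6 and 11. They correlated more between libraries of 1 set from different mice (0.55 between after 11 and before 6, and 0.49 between after 5 and before 11), so the pairing, on which every count over 3 of 3 mice rests, comes from the labels and not from the values.

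Named genes were the 12 highest and 12 lowest by the smallest of the 3 differences within mice (mean of at least 1 CPM, same direction in each mouse, no predicted genes), the 5 highest and 5 lowest by F statistic unpaired and with the mouse as a block, up to 5 by adjusted p in each alternative that called genes, and members of the lists described. Just inside the first limit lay Rapgef3 (1.74) and Prox1 (-1.43), and just outside Col6a3 (1.74) and Cavin2 (-1.40). The 56 gene lists and the named genes' rule were chosen with earlier results of these data known. Of 1130 list symbols, 1124 were found in the table. A few genes of these lists are not reported here.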

Additional observations from a re-analysis of the deposited data

How the results depend on the processing

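The unpaired test called 0 genes in every fit that left out 1 library (0 to 0), with 151 to 3545 genes at an unadjusted p under 0.05, the highest without after 5, which leaves libraries of set B alone after. With the replicate block (the mouse) it also called 0 genes, with 214 at an unadjusted p under 0.05, so the pairing changed no call. The count of calls was 43 in set A alone and 16 with DESeq2. The counts of genes with a log2 difference of at least 1 in each mouse were 37 higher and 45 lower. On log2(TPM + 1) they were 6 and 13 (the scale changes the pseudocount, length and library scaling together, and the cause was not tested), and with a minimum count of 30, which tests fewer genes, the higher count was 19. The difference of Col6a2 was 2.79, and leaving out 1 library gave -0.53 (reversed, without after 5) to 8.77 (without before 5). Of 542 alternative values of 29 of the 34 named genes, this 1 reversed and 17 passed the threshold. The other named genes were not in that count. Among them Podnl1 also reversed, from 3.98 to -0.76 in set B alone. The medians of 53 lists changed sign in 5 with the block, 7 when the set entered as a term and 6 after length correction. The median over all genes moved to -0.27 in mouse 11 when library totals replaced TMM scaling, and to -0.38 on log2(TPM + 1). At these depths 3 counts correspond to 0.141 to 0.175 CPM. Of the 82 genes with a log2 difference of at least 1 in each mouse, 2 (Hoxd8 and Anpep, both in mouse 6) flipped on log2(TPM + 1), 1 (Anks1b, in mouse 11) after length correction, and 0 under the other scalings.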

Other observations

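Some genes were present in 1 library alone. With a rule chosen after the values were seen (at least 5 CPM in 1 library and under 0.5 CPM in each of the others), 22 of 11171 genes belonged to after 5, 16 to after 11, 1 to after 6, 1 to before 5 and 0 to before 6 and before 11. The 16 genes of after 11 included interferon-stimulated genes: the ubiquitin-like modifier Isg15 (94.4 CPM), its protease Usp18 (56.7 CPM), Oasl1 (43.0 CPM) and the chemokine Ccl5 (28.0 CPM, 480 counts against 0 to 5 in the other libraries). The 22 genes of after 5 included Col2a1, the main collagen of cartilage, at 155 CPM, and the epithelial transcription factors Elf3 (34.7 CPM) and Foxa1 (32.6 CPM). The 1 gene of after 6 was the homeobox gene Esx1, at 11.2 CPM.

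Cartilage genes were looked at for that reason, as a list written after these values were seen. Of 17 found, 9 were highest in after 5. Acan was at 189 CPM there, Col11a1 at 66.3 CPM and Sox5 at 10.5 CPM, while Sox6 stayed at or below 0.437 CPM and Col9a1, Cnmd and Snorc had 0 counts in all 6 libraries. Sox9, the factor that drives cartilage genes, was at 23 to 49.4 CPM in all libraries and highest in after 5. Each of these patterns rests on 1 library, and no comparison between the groups was drawn from them.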
